A study of Rattus norvegicus with 2 samples.

Results

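Back-spliced junctions that fall inside replication-dependent histone genes were followed through circular RNA (circRNA) sequencing labelled as of rats with tibial tumours and their controls. The members were all rows of the table whose gene name began with HIST and a digit and named no other gene. This gave 12 junctions in 9 histone genes, of 17260 junctions in 5157 host genes. Per the labels, both groups were SD rats with 3 animals each, operated on at the tibia and killed 21 days later. The bone_cancer_pain animals received live Walker256 cells in the marrow cavity; Walker256 is a carcinoma line of the rat mammary gland, here grown as ascites. The control animals received Walker256 cells boiled for 20 minutes. The labels describe the RNA both as coming from ascites cancer cells and as coming from spinal cord of the injected rats, and they do not say whether animals were pooled. There was 1 library per group, called the control and the pain library below, so no test between conditions was possible, condition and library cannot be told apart, and each ratio below compares 2 libraries with an exact 95% interval for counting error only.

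A circRNA is a closed loop, usually made when the splice site at the end of an exon is joined to one upstream. Replication-dependent histone genes are unusual hosts, because they have no introns and their mRNAs end in a stem-loop in place of a poly(A) tail. They lie in clusters, are transcribed mainly during DNA replication, and encode the linker histone H1 and the core histones H2A, H2B, H3 and H4 around which DNA is wound. Whether the junctions described here are circular molecules was not tested.

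The gene symbols and positions are those of the table, which are in human style, although the labels give rat. The 10 junctions of the HIST1 cluster were placed on chromosome 6, and those of HIST2H2AB and HIST3H2A on chromosome 1. Of the 9 gene names, 6 matched 1 or 2 genes of the same name or synonym in the RefSeq rat gene table (assembly GRCr8). HIST1H1C matched 2 rat genes, H1f2 and H1f4, and HIST1H1D matched 2, H1f4 and H4f3, so these matches are ambiguous. Of the 6 matched names, 0 had the same chromosome number there. The rat HIST1 matches were on chromosome 17, that of HIST2H2AB on chromosome 2 and that of HIST3H2A on chromosome 10. The table does not name its build. Its contig names include 17_ctg5_hap1 and Un_gl000220, which are names of human builds, and 54.0% of all junctions carried an identifier of a human circRNA catalogue. Since no genome of the table's build was used here, no junction sequence is printed. Of spinal cord markers, 0 of 10 neuronal, 0 of 6 astrocyte and 3 of 8 oligodendrocyte genes had a junction. Of markers for the other source, 3 of 8 proliferation and 1 of 6 epithelial carcinoma genes did. The largest of these were QKI (72 control and 58 pain reads) with MBP (2 and 3), CCNB1 (120 and 107) with TOP2A (60 and 41), and ERBB2 (36 and 35). The oligodendrocyte genes had 74 control and 63 pain reads in all, nearly all on QKI. A gene without a listed circular junction may still be expressed, and the source of the RNA was not tested.

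Values are reads on circular junctions scaled to 1000000 per library (RPM), recovered as whole reads. There were 159941 junction reads in the control and 151685 in the pain library. No value below 2 reads was listed, so a junction that is not listed may still have had 1. For that reason no fold is given for a junction or gene listed in 1 library.

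Histone junctions took a larger share of reads in the pain library. All 12 junctions were listed there, and 4 of 12 were listed in the control library. Their sum was 46 control reads (0.0288% of the library, interval 0.0211 to 0.0384) and 222 pain reads (0.146%, 0.128 to 0.167), a ratio of 5.09 (3.69 to 7.15). This sum holds listed reads only. The 4 junctions listed in both libraries had 46 and 179 reads (4.10, 2.95 to 5.80), and the other 43 pain reads were on the 8 junctions not listed in the control. Without HIST1H1C, the histone gene with the most reads, the sum was 8 and 60 reads (7.91, 3.77 to 19.2). Of those 60 reads, 34 were on 7 junctions listed in the pain library only, and the 2 junctions listed in both had 8 and 26 reads (3.43, 1.51 to 8.76). Of the 12 junctions, 12 had a higher share of reads in the pain library, against 51.8% of all junctions. For 8 of the 12 that direction was fixed, because they were listed in that library only, against 29.4% of all junctions. In the control library only, 0 were listed, against 28.6%. The direction was thus open for the 4 listed in both, of which HIST1H2BG had an interval that includes 1. The median log2 ratio with 0.5 reads added was 3.09 for histone junctions and 0.08 for all junctions. For the 8 junctions listed in 1 library it is set in part by the 0.5 reads added.

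**Figure D1:**
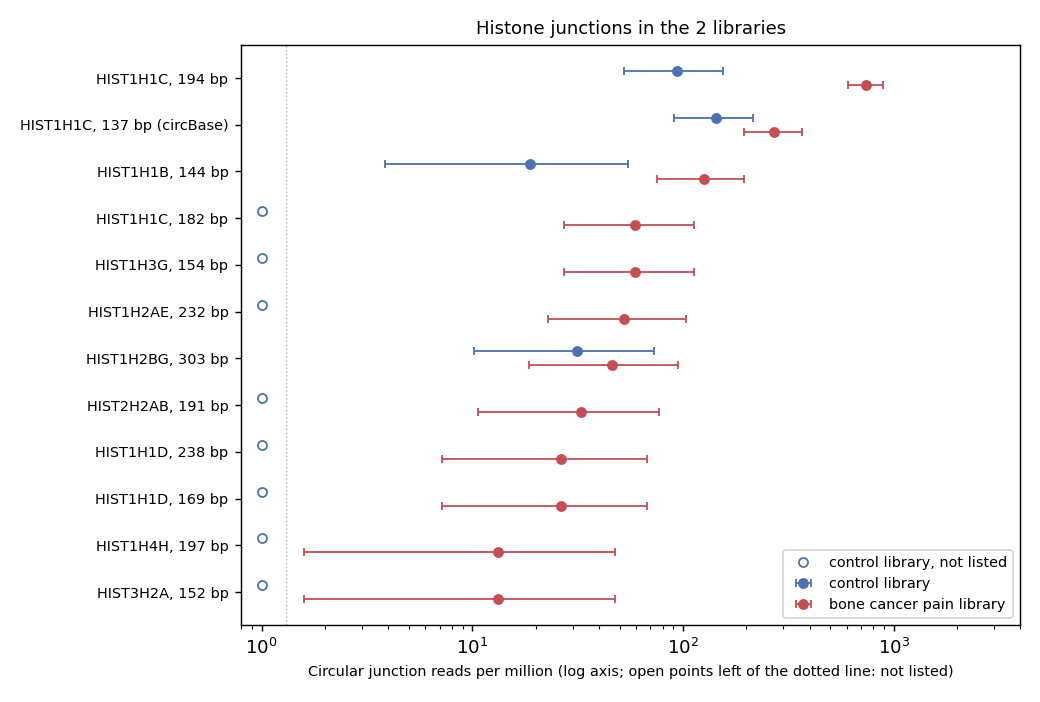
RPM on circular junctions (log axis) for each of the 12 histone junctions, labelled by gene and by the distance between its 2 ends; points are the control and pain libraries, bars are exact 95% intervals for counting error, and open points mark junctions not listed. The intervals of the 194 bp HIST1H1C junction and of the HIST1H1B junction do not overlap between libraries, those of the other 2 junctions listed in both do, and 8 junctions have no control value.

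The linker histones, mainly HIST1H1C, held most of these reads. H1 binds the DNA that enters and leaves the nucleosome and helps to compact chromatin. The 6 H1 junctions had 41 control and 189 pain reads (4.86, 3.45 to 6.99), which was 89.1% of histone reads in the control (76.4 to 96.4) and 85.1% in the pain library (79.8 to 89.5). These shares had overlapping intervals. HIST1H1C alone held 82.6% of histone reads in the control (68.6 to 92.2) and 73.0% in the pain library (66.6 to 78.7). Of the 6 H1 junctions, 3 were listed in both libraries, and the ratio of 4.86 includes pain reads of those not listed in the control. Of 6 H1 genes of the HIST1 cluster that were looked up, 3 had a junction: HIST1H1B, HIST1H1C and HIST1H1D. HIST1H1A, HIST1H1E and HIST1H1T had none listed. How reads were assigned among H1 genes was not tested.

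HIST1H1C carried 3 junctions, more than any other histone gene. The most abundant ran from 26056054 to 26056248 on chromosome 6, a distance of 194 bp, and had no identifier in circBase, a catalogue of published human circRNAs. It stood at 93.8 RPM in the control (15 reads) and 738 RPM in the pain library (112 reads). The ratio was 7.87 (4.57 to 14.5), rank 26 from the highest among 5110 junctions listed in both libraries with 10 or more reads. By reads it was at rank 2109 in the control and rank 132 in the pain library.

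The only catalogued histone junction, hsa_circ_0001584, also lay in HIST1H1C, from 26056275 to 26056412 (137 bp). It had 143.8 RPM in the control (23 reads) and 270.3 RPM in the pain library (41 reads), a ratio of 1.88 (1.10 to 3.28). It was the highest histone junction in the control library and the second highest in the other. The intervals of these 2 ratios, 4.57 to 14.5 and 1.10 to 3.28, did not overlap, so junctions of 1 gene differed in how unequal the libraries were. The third HIST1H1C junction, from 26056123 to 26056305 (182 bp), had 59.3 RPM (9 reads) in the pain library and was not listed in the control.

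Summed over the gene, HIST1H1C had 38 and 162 reads (4.50, 3.14 to 6.58). Without its most abundant junction, the ratio was 2.29 (1.37 to 3.94). Both sums include the 9 pain reads of the 182 bp junction, which was not listed in the control. The catalogued junction made up 60.5% of HIST1H1C reads in the control (43.4 to 76.0) and 25.3% in the pain library (18.8 to 32.7). Among host genes, HIST1H1C was at rank 914 by control reads and rank 134 by pain reads.

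The HIST1H1C junctions lay within 358 bp and shared no end. The 194 bp and the 182 bp junction overlapped by 125 bp, the 182 bp junction and hsa_circ_0001584 by 30 bp, and a gap of 27 bp separated the 194 bp junction from hsa_circ_0001584. Across the whole table, 61.8% of junctions shared a start or an end with another junction, as isoforms that use the same splice site do. Of the 12 histone junctions, 0 did. Only HIST1H1C and HIST1H1D had several junctions, so those of the other histone genes had no second junction of their gene to share an end with.

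**Figure D2:**
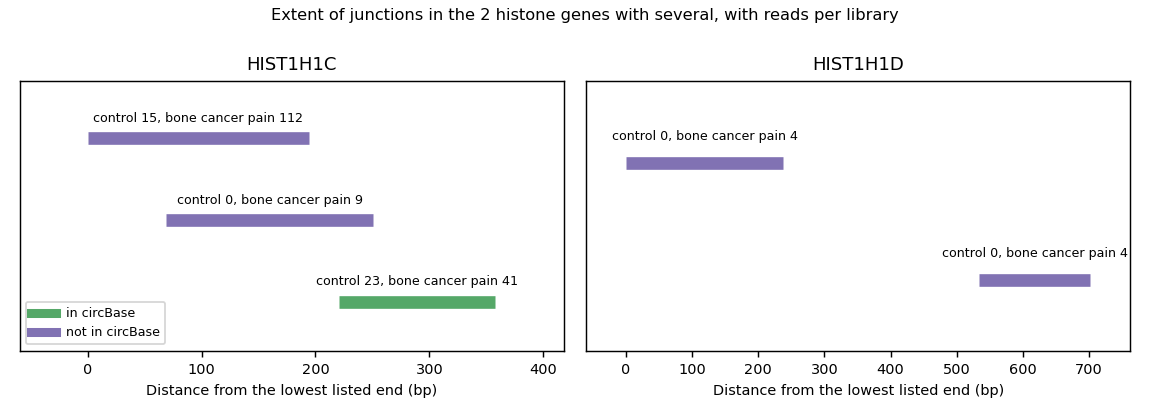
Extent of each junction in HIST1H1C and HIST1H1D as distance in bp from the lowest listed end of the gene's junctions, coloured by circBase status, with reads in the control and pain libraries printed above each bar. The 3 HIST1H1C junctions are staggered with no common end, and the 2 of HIST1H1D are 295 bp apart.

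HIST1H1B, another linker histone gene, had 1 junction from 27835131 to 27835275 on chromosome 6 (144 bp). It had 18.8 RPM in the control (3 reads) and 125.3 RPM in the pain library (19 reads), a ratio of 6.68 (1.97 to 35.2) whose width reflects the 3 control reads. HIST1H1D had 2 junctions, from 26234500 to 26234738 (238 bp) and from 26235033 to 26235202 (169 bp). Each had 26.4 RPM (4 reads) in the pain library and was not listed in the control.

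The core histones, which form the nucleosome's protein core, had 6 junctions with 5 control and 33 pain reads. No ratio is given for this sum, because 26 of the 33 pain reads were on 5 junctions listed in the pain library only. All 5 control reads were on HIST1H2BG, an H2B gene, whose junction ran from 26216529 to 26216832 and was the longest of all at 303 bp. It had 31.3 RPM (5 reads) and 46.1 RPM (7 reads), and its ratio of 1.48 had an interval that includes 1 (0.40 to 5.90). Of the other 5 core junctions, the H3 gene HIST1H3G (26271200 to 26271354, 154 bp) had 59.3 RPM (9 reads). The H2A genes followed, with HIST1H2AE (26217265 to 26217497, 232 bp) at 52.7 RPM (8 reads), HIST2H2AB (chromosome 1, 149859122 to 149859313, 191 bp) at 33.0 RPM (5 reads) and HIST3H2A (chromosome 1, 228645270 to 228645422, 152 bp) at 13.2 RPM (2 reads). The H4 gene HIST1H4H (26285467 to 26285664, 197 bp) also had 13.2 RPM (2 reads). Each class of core histone was therefore represented, by 3 H2A genes and 1 each of H2B, H3 and H4. Within each class, core histone genes are known for closely similar coding sequences. How reads were assigned among related genes was not tested, for core or for linker histones. Gene names of the junctions may therefore be uncertain, those of HIST1H1C included.

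In the pain library the 194 bp HIST1H1C junction, at 738 RPM (608 to 888), was above hsa_circ_0001584 at 270.3 RPM (194 to 367). The intervals of hsa_circ_0001584 and the next, HIST1H1B (75.4 to 196), overlapped, and so did those of each following pair down to the lowest, at 13.2 RPM (1.60 to 47.6). In the control library hsa_circ_0001584 (91.2 to 216) and the 194 bp junction (52.5 to 155) were in the opposite order, with overlapping intervals.

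By size, 4 histone junctions had 10 or more reads over both libraries. Of these, 2 were at least 2-fold higher in the pain library (the 194 bp HIST1H1C junction and that of HIST1H1B), against 17.3% of all junctions with 10 or more reads, and 0 were at least 2-fold lower, against 17.0%. For sums per gene, 2 of 3 histone genes were at least 2-fold higher, HIST1H1C and HIST1H1B, against 13.7% of host genes. None of the 3 was lower, against 13.9%. With 3 genes and 4 junctions, these shares rest on few features. HIST1H1B (3 control and 19 pain reads) reached 10 reads through the pain library alone, both as a junction and as a gene. The other 6 histone genes had under 10 reads.

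**Figure D3:**
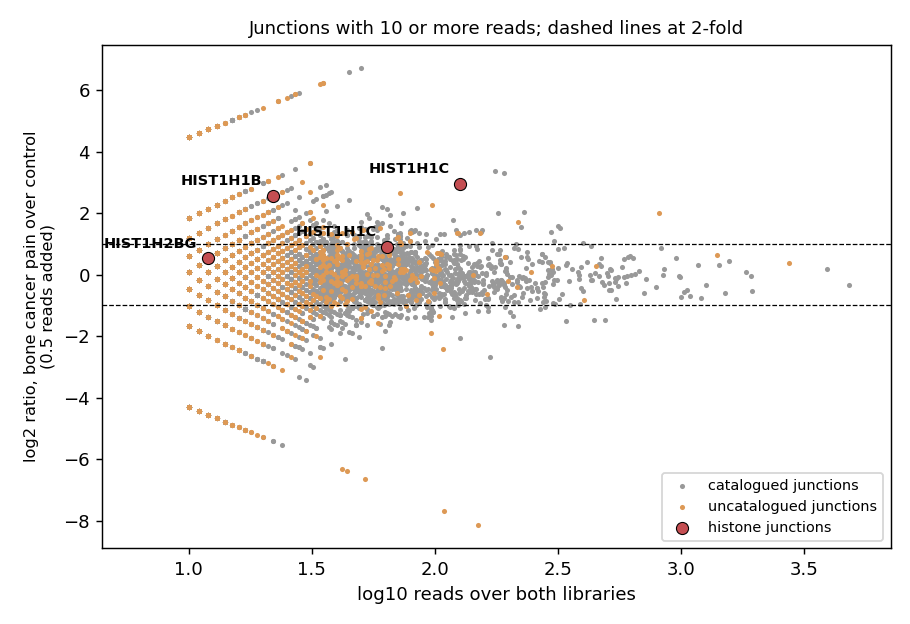
log2 ratio of pain over control, with 0.5 reads added, against log10 reads over both libraries for the 5415 junctions with 10 or more reads; red points are the 4 histone junctions that reach this depth and dashed lines mark 2-fold. The 194 bp HIST1H1C junction and the HIST1H1B junction lie above 2-fold, while hsa_circ_0001584 and HIST1H2BG lie between the lines.

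The histone junctions were short and mostly uncatalogued. The distance between ends ran from 137 to 303 bp with a median of 186.5 bp, against 5764 bp over all junctions. Of the 12, 9 were at most 200 bp. Short distances followed in part from the rule for members, since a junction within 1 gene without introns can be no longer than that gene. Distances over all junctions can include introns, and the shortest of any junction was 134 bp. Of all junctions, 5.53% were no longer than the longest histone junction. A circBase identifier was given for 1 of 12 (8.33%, 0.21 to 38.5), against 54.0% of all junctions. The shortest histone junction was the catalogued one, and 137 bp was also the shortest distance of any catalogued junction in the table.

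**Figure D4:**
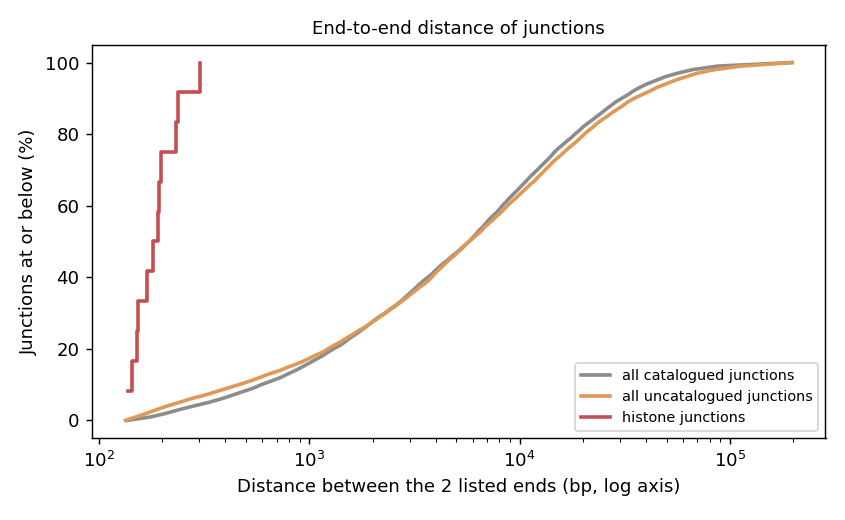
Share of junctions at or below each distance between the 2 listed ends (bp, log axis), for all catalogued junctions, all uncatalogued junctions and the 12 histone junctions. The histone curve runs from 137 to 303 bp and is bounded by the length of genes without introns. The medians of all catalogued (5756 bp) and all uncatalogued junctions (5767 bp) lie far to the right and close to each other.

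Other junctions of the same length were set beside them. Outside histone genes, 522 uncatalogued junctions had ends 137 to 303 bp apart, and together had 3102 control and 3936 pain reads (1.34, 1.28 to 1.40). Most of this difference was on RPPH1, the RNA component of ribonuclease P, without which the remaining 514 had 1654 and 1611 reads (1.03, 0.96 to 1.10). Of those 514, 46.7% were listed in the pain library only, and among the 74 with 10 or more reads, 19 (25.7%) passed 2-fold upwards and 19 downwards. The 417 catalogued junctions of this length had 4481 and 3526 reads (0.83, 0.79 to 0.87). The histone ratio of 5.09 thus lay above the summed ratio of short junctions in each of these sets, whose intervals ended at 1.40 or below. Those intervals cover counting error of a sum and not the spread among single short junctions. Of the 222 histone pain reads, 112 were on 1 junction.

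Other genes with only short, uncatalogued junctions were looked for. Of 2084 other host genes with 3 or more junctions, 4 had all of them at 1000 bp or less with none catalogued. None of the histone genes meets this rule, HIST1H1C because of its catalogued junction and the other 8 because they have fewer junctions. RPPH1 had 8 junctions of 154 to 276 bp, with 1448 and 2325 reads (1.69, 1.58 to 1.81). AGRN, a basement membrane proteoglycan, had 4 junctions with 9 and 13 reads (1.52, 0.60 to 4.04). CASC3, a component of the exon junction complex, had 3 with 7 and 2 reads (0.30, 0.031 to 1.58). CALR, a calcium-binding chaperone of the endoplasmic reticulum, had 3 with 5 and 2 reads and none listed in both libraries.

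Among 37 other genes listed as intronless or as single-exon, 5 had a junction, and all 5 were noncoding (5 of 8 noncoding and 0 of 29 protein-coding genes). Of these 5, 3 were at least 2-fold higher in the pain library (against 13.7% of host genes) and 0 lower (against 13.9%), with a median log2 ratio of 1.31 against -0.01 over all host genes. Beside RPPH1, MALAT1, a nuclear noncoding RNA, had the most reads, with 15 and 36 (2.53, 1.35 to 4.98). Of the 6 junctions of MALAT1, 1 was listed in both libraries. RMRP (0 and 29 reads) and RN7SL2, the RNA of the signal recognition particle (2 and 21; 11.1, 2.71 to 97.4), were the others at least 2-fold higher; both reached 10 reads through the pain library alone and were picked out once their values were known. NEAT1 had 8 and 8 reads. Over the 5 genes the sum was 1473 control and 2419 pain reads, nearly all on RPPH1, and the part of these RNAs in the histone result was not tested.

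Between the first and the last HIST1 junction, over 1779221 bp of chromosome 6, the table listed 9 other junctions. Of these, 6 carried only names of small RNAs and no circBase identifier, and together had 7 control and 41 pain reads. All such rows of the table, 343 in number, had 1309 and 1872 reads (1.51, 1.40 to 1.62). The one with the most reads joined 26217452 to 26272474 (55022 bp), with 25 pain reads and none listed in the control. Its first end fell inside the HIST1H2AE junction and its second end 1120 bp beyond the HIST1H3G junction, so it spanned both junctions of HIST1H1D as well. Another (26199850 to 26273335, 2 pain reads) enclosed junctions of 4 of the histone genes. The 3 remaining rows of the window were those of the butyrophilin genes BTN2A2 (0 and 5 reads), BTN2A3P (3 and 4) and BTN3A1 (2 and 0).

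Histone variants encoded outside the clusters, several of which have introns and are made throughout the cell cycle, were looked at next. Of 16 such genes, 3 had a junction. Their 5 junctions had ends 736 to 26882 bp apart, all longer than any histone junction of the clusters, and 3 of the 5 were catalogued. H2AFV, an H2A.Z gene, had 24 and 46 reads (2.02, 1.21 to 3.46) on hsa_circ_0008791. H2AFY, which encodes macroH2A, had 21 and 17 reads (0.85, 0.42 to 1.70) over 3 junctions, 2 of them catalogued. CENPA, the centromeric H3 variant, had 2 control reads. By size, 1 of the 2 with 10 or more reads was at least 2-fold higher (13.7% of host genes) and 0 lower (13.9%).

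In a list of factors of histone gene transcription and mRNA 3′ end formation, 18 of 34 genes had a junction. The list also held factors of polyadenylation, such as FIP1L1, and of mRNA decay, such as UPF1. Of the 11 that reached 10 reads, 2 were at least 2-fold higher and 0 lower, against 13.7% and 13.9% of host genes, and the median log2 ratio was 0.32. With 11 genes, 2 is a share near that background. FIP1L1, a subunit of the polyadenylation complex, had 199 and 235 reads (1.245, 1.03 to 1.51), and GON4L 73 and 104 (1.502, 1.10 to 2.06). The higher ones, chosen with their values in view, were CASP8AP2, which encodes the histone processing factor FLASH (10 and 25; 2.64, 1.22 to 6.15), and UPF1, an RNA helicase of histone mRNA decay, whose 15 reads were all in the pain library. SLBP, which binds the stem-loop and was chosen in the same way, had 16 and 11 (0.72, 0.30 to 1.66). UPF1 reached 10 reads through the pain library alone.

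Histone chaperones, which carry histones to and from DNA, had a junction in 15 of 27 genes. Of the 11 that reached 10 reads, 3 were at least 2-fold higher and 2 lower, against 13.7% and 13.9% of host genes, and the median log2 ratio was 0.62. CHAF1B, a subunit of chromatin assembly factor 1, had 102 and 40 reads (0.41, 0.28 to 0.60) and the histone acetyltransferase HAT1 39 and 57 (1.54, 1.01 to 2.38). CHAF1A, another subunit of the same complex, had 7 and 36 (5.42, 2.38 to 14.4), with 1 of its 6 junctions listed in both libraries. CHAF1A reached 10 reads through the pain library alone, as did SET. ATRX (10 and 29; 3.06, 1.45 to 7.03), SET (10 reads, all in the pain library) and, among the lower, NPM1 (42 and 18; 0.45, 0.24 to 0.80) were, like CHAF1A, chosen with their values in view. Of the 9 junctions of ATRX, 1 was listed in both libraries. Reads on circRNAs measure neither the linear mRNAs nor the proteins.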

How the data were processed

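Per the labels' protocols, total RNA was depleted of ribosomal RNA, digested with 16 units of RNase R for 15 minutes at 37 °C and made into strand-marked libraries. CASAVA 1.8, BWA and the build rn6 are named, without a role, in the submitters' processing notes; which program called circRNAs, and with which read minimum, is not given in the sources used here. Per the file headers the deposited unit is TPM, but the values were handled as RPM: above a placeholder of 0.001, 100% of values were whole multiples of 1 step per library (within 0.01 reads), whatever the junction. Dividing by the step gave reads. The placeholder was taken as not listed.

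Ratios are of shares of library reads, with exact conditional binomial (Clopper-Pearson) 95% intervals; shares have exact binomial intervals. PCR reads without molecular identifiers are not independent molecules, so intervals cover counting error only. Ratios of summed reads include reads of junctions listed in 1 library, unless stated otherwise. Size calls used a 2-fold ratio with 0.5 reads added and 10 or more reads over both libraries. Distance is the higher minus the lower listed position; the table does not say whether positions count from 0 or 1. Host sums left out rows with several genes, none, or a name turned into a number. In all, 1 row on chromosome Y or of a gene marking X inactivation was left out after totals were taken.

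The members, the 4 gene lists and the 5 marker lists were chosen with earlier results of these data known. All histone genes are named; of each list, the 2 genes with the most reads; and, for a like pattern, up to 5 genes with the most reads among those with 3 or more junctions, all at 1000 bp or less and none catalogued. The intronless list includes ZXDC, which has introns and had no junction. Other settings were scaling by median of ratios, by a trimmed mean (TMM, trimming 30% of ratios and 5% of abundances, coded directly) or to catalogued reads, other read minimums and folds, and subsets of junctions. Functions were tested on simulated data. Tools were scipy 1.17.1, numpy 2.4.6, pandas 2.3.3 and matplotlib 3.10.9 under Python 3.11.15.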

Additional observations from a re-analysis of the deposited data

How the results depend on the processing

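Of 37 values under other settings, 18 were scalings, which shift every feature alike by at most 0.08 on the log2 scale and turned no direction, and 1 could not move, since no row named a histone gene with another gene. Of the other 18, 14 stayed within the interval of the reported value (counts within 1.5 times, the median distance within 1 SD of the members), 4 moved and 0 changed direction. The histone ratio of 5.09 was 4.10 over junctions listed in both libraries and 3.74 without the junction with the most reads. Without HIST1H1C it was 7.91, and 3.43 when only junctions listed in both were kept, a setting chosen after seeing the data. The HIST1H1C ratio of 4.50 was 2.29 without its most abundant junction, with pain reads of a junction not listed in the control in both. With a minimum of 5 reads, 6 of 7 histone genes were at least 2-fold higher, against 16.6% of host genes, but all 4 genes added had no control reads and pass only through the pain library and the 0.5 reads added. No paired analysis was possible because each group had 1 library. The 8 junctions not listed in the control have no bounded fold.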
